A study of Mus musculus with 12 samples.

Results

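RNA levels of 9 receptors of the TNF receptor superfamily were compared among 4 groups of cultured mouse regulatory T cells (Tregs), the CD4+ T cells that express the transcription factor Foxp3 and restrain other immune cells. The 9 genes were Tnfrsf4, Tnfrsf9, Tnfrsf18, Cd27, Tnfrsf1b, Fas, Tnfrsf1a, Tnfrsf25 and Tnfrsf26. They were taken by symbol from a table of 55228 gene symbols, and the choice was made with earlier results of these data known. All 9 were among the 15043 genes that had a mean of at least 1 TPM (a length-corrected share of all transcripts in a library) over the 12 libraries.

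The study asked how Tregs fare when IL-2 is supplied as a soluble cytokine or from a receptor-tethered form made by the cell itself. CD4+ cells from the lymph nodes of 16 pooled NOD.Foxp3-GFP mice were divided into 3 parts, each sorted as Foxp3.GFP+CD25+ on its own machine and activated on its own. The age of the mice was not given in the labels. On day 2, each part was transduced with an empty vector (EV) or with 1 of the tether constructs 1G12t and 3A10t. In these constructs an orthogonal IL-2 variant, 1G12 or 3A10, is linked through a CD25-derived tether to an orthogonal IL-2Rβ chain that it is designed to bind. All cells carried the retroviral vector and its Thy1.1 reporter. IL-2 was washed out on day 4 and the cells were kept for 5 more days without it (EV no IL-2, 1G12t and 3A10t), whereas a portion of the EV culture stayed in soluble IL-2 (EV+IL-2). Thy1.1+ cells were sorted on day 9, giving 3 libraries for each of the 4 groups. The replicates were parts of a single pool of animals, so that p-values measure only the spread between these cultures.

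Receptors of this superfamily sit on the cell surface and signal when clustered by ligands of the TNF family. One branch recruits TRAF adaptors and activates NF-κB and MAP kinases, which in T cells acts as co-stimulation. The other branch carries a cytoplasmic death domain, through which Fas can start apoptosis. Tregs are known for high levels of OX40, GITR and TNFR2, and IL-2 signals in them mainly through STAT5.

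The 12 libraries held Treg RNA. The 6 Treg and T cell markers examined summed to 1596 to 2242 TPM per library, and Foxp3 averaged between 408 TPM in 3A10t and 502 TPM in EV+IL-2. Markers of B, myeloid, CD8 T and NK cells summed to at most 17.4, 4.31, 6.51 and 0.520 TPM. TPM keep no record of read number. The sequencing depth is therefore unknown, and the spread between the 3 libraries is the only error given. Values below are TPM divided by a median-of-ratios factor of each library, between 0.854 and 1.09, and a fold change is a difference in log2(scaled TPM + 1).

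In EV no IL-2 Tregs, the most abundant of the 9 RNAs was that of Tnfrsf4, which encodes OX40, a co-stimulatory receptor. It stood at 2319 ± 128 TPM (SD, n = 3) and ranked 34 among the 15043 genes. Tnfrsf18, which encodes GITR, followed at 1760 ± 58.2 TPM and rank 54. Together both made up 78.8% ± 0.734 of the RNA of the 9 receptors. Cd27, a co-stimulatory receptor for CD70, had 457 ± 4.72 TPM. Tnfrsf25, the death domain receptor DR3, had 212 ± 11.5 TPM, and Tnfrsf1b, the TNF receptor TNFR2, had 143 ± 3.41 TPM. Then came Tnfrsf26 at 100.1 ± 9.86 TPM, Tnfrsf9 at 88.2 ± 3.48 TPM and Fas at 82.7 ± 6.44 TPM. Neighbours in this order were separated in every library, except that the libraries of Tnfrsf26 and Tnfrsf9 overlapped, as did those of Tnfrsf9 and Fas. Tnfrsf1a, the widely expressed TNF receptor TNFR1, was far below the others at 14.9 ± 1.22 TPM and rank 7203.

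The order was not the same in every group. In EV+IL-2, Tnfrsf9 stood at 170 ± 17.8 TPM, above Tnfrsf1b, Fas and Tnfrsf26, and its libraries overlapped with those of Tnfrsf25 at 191 ± 14.7 TPM. Tnfrsf18 and Tnfrsf4 overlapped there as well. In 3A10t, Tnfrsf1b was at 83.7 ± 33.8 TPM and ranked 2245, below Fas at 87.9 ± 3.64 TPM, although the wide spread of Tnfrsf1b crossed the level of Fas. Over the 4 groups, the mean log2 value of Tnfrsf9 spanned 0.94, a range that 17.0% of the tested genes exceeded, and that of Cd27 spanned 0.86 (19.5% wider). Tnfrsf1a spanned only 0.18 (92.3% wider), and Tnfrsf25 and Fas spanned 0.29 and 0.36.

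**Figure D1:**
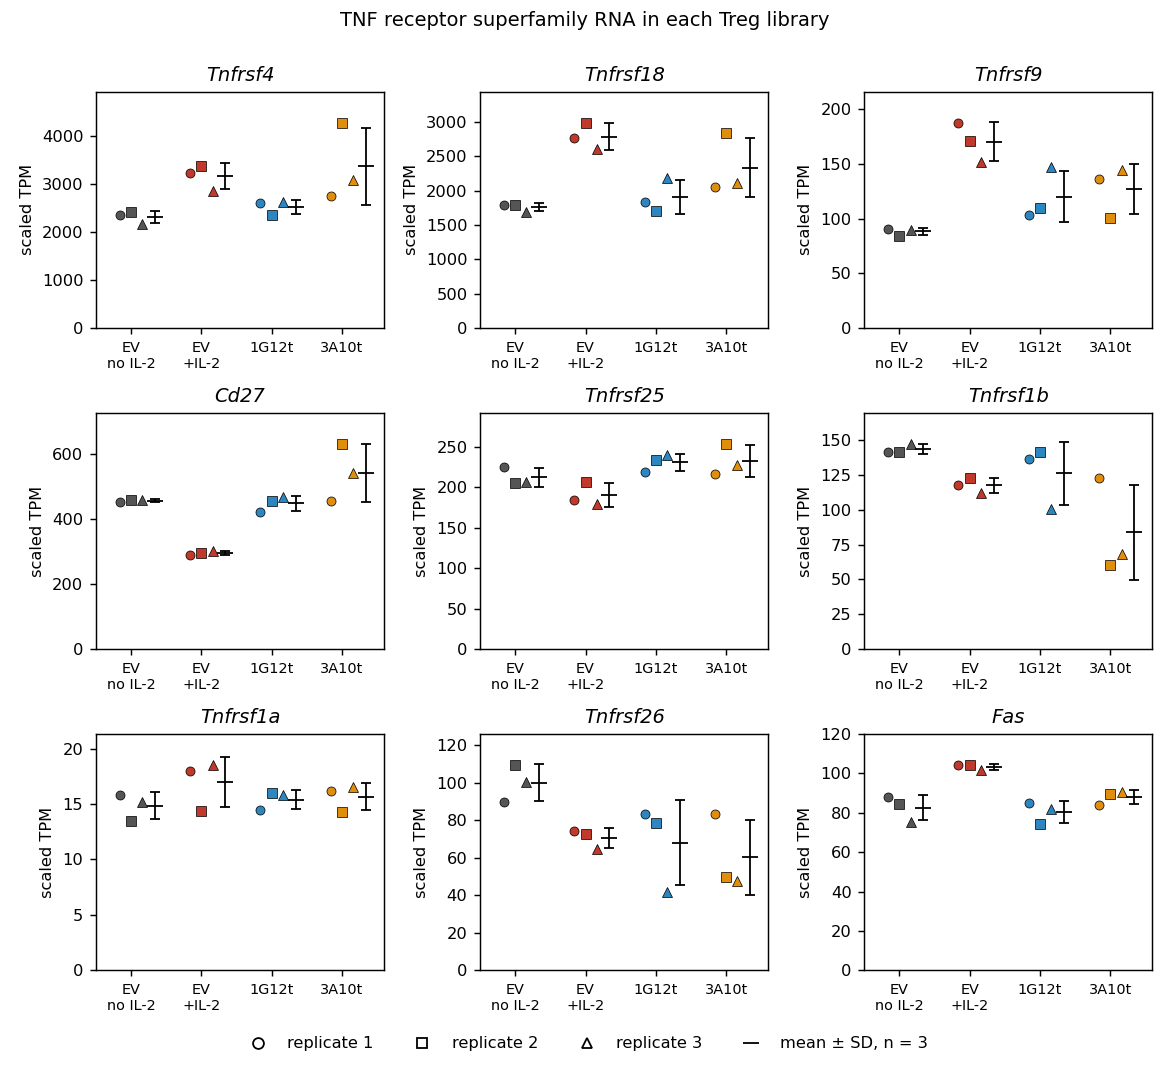
Scaled TPM (y axis, from 0) of the 9 receptor genes in each library of the 4 groups, with symbols for replicates 1 to 3 and the mean ± SD (n = 3) beside them. Tnfrsf9 and Tnfrsf18 were highest in EV+IL-2, Cd27 was lowest there, and the 3A10t libraries spread widely for Tnfrsf4, Tnfrsf1b and Tnfrsf26.

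On the GRCm38 genome with GENCODE M21, 5 of the 9 genes lie on chromosome 4. Tnfrsf4 (chr4:156013843-156016612) and Tnfrsf18 (chr4:156026164-156028895) are on the plus strand with 9551 bp and 2 other genes between them. Tnfrsf9 (chr4:150914562-150946102), Tnfrsf25 (chr4:152115934-152120119) and, on the minus strand, Tnfrsf1b (chr4:145213463-145246870) are farther off. Cd27 (chr6:125232622-125237010, minus strand) and Tnfrsf1a (chr6:125349362-125362484) are 112.4 kb apart. Tnfrsf26 (chr7:143607659-143628722, minus strand) and Fas (chr19:34290666-34327772) stand alone. Of the exon bases of Tnfrsf18, 27.17% are shared with Gm16008 on the opposite strand, and whether reads were counted by strand was not given in the sources used here. Gm16008 had 39.4 ± 3.15 TPM in EV no IL-2 and 60.6 ± 2.21 TPM in EV+IL-2. The shared part was 5.54% for Cd27, 3.33% for Tnfrsf26 and 0 for the other 6 genes.

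Because IL-2 acts through STAT5, the 250 bases before the RefSeq transcription starts of the members (GRCm38.p6) were searched for the STAT letters TTCNNNGAA on both strands. RefSeq windows were found for 8 of the 9 members, and Tnfrsf26 had none. The letters were present for 6 of the 8, in 6 of their 10 windows, whereas 7.02% of all 32851 promoter windows of this length hold them. The sites are shown with up to 10 flanking bases as written on the strand of the gene and with the match in capitals. They lie at chr4:150927853-150927881 for Tnfrsf9, chr4:156026213-156026241 for Tnfrsf18, chr19:34290556-34290584 for Fas, chr4:145247033-145247061 (minus strand) for Tnfrsf1b, chr6:125349473-125349497 for Tnfrsf1a and chr4:152116317-152116342 for Tnfrsf25.
Tnfrsf9: caacagctgaTTCCAAGAAacccttcaga
Tnfrsf18: tgctctacacTTCACAGAAggcctttaca
Fas: tcaaagcgatTTCTGGGAAgacctgaata
Tnfrsf1b: agcgcattcaTTCCCGGAAgagatgctgg
Tnfrsf1a: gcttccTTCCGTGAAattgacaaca
Tnfrsf25: gggcctccacTTCTCAGAAggcatgg
The first base of the match was 136, 99, 93, 181, 244 and 16 bases before the start, in the order shown. The matches of Tnfrsf18 and Tnfrsf1a fall on bases that GENCODE M21 also annotates as exon. For Tnfrsf9 and Tnfrsf25, which have more than 1 RefSeq start, the letters were before 1 of them only. The AP-1 letters TGANTCA were found for 2 members, Fas and Tnfrsf9 (6.75% of all promoters), and the NF-κB motif for 2, Tnfrsf9 and Tnfrsf25 (7.25%). Cd27 and Tnfrsf4 held none of the 3 motifs in these windows.

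A match in letters is a description of these windows and not a bound site.

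In EV Tregs kept in soluble IL-2, Tnfrsf9, Tnfrsf18 and Fas rose and Cd27 fell relative to EV no IL-2. By limma with Benjamini-Hochberg adjustment over all 15043 genes, 4 of the 9 receptors had an adjusted p under 0.05, beside 13.3% of all genes tested. The 3 that rose stood beside 8.17% of all genes, and the 1 that fell beside 5.13%. At the threshold of the authors applied to the same limma fit, an unadjusted p under 0.01 with a log2 fold change beyond 0.25, the count was 5 of 9 beside 15.1%. In bulk RNA, fewer cells of a type and less RNA per cell cannot be told apart.

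Tnfrsf9 encodes 4-1BB, a co-stimulatory receptor induced when T cells are activated. Its libraries stood at 90.4, 84.2 and 90.0 TPM in EV no IL-2 and at 187.6, 171.1 and 152.0 TPM in EV+IL-2. Every EV+IL-2 library was far above every EV no IL-2 library. The log2 fold change was 0.94 ± 0.16 (SE), a ratio of means of 1.93, with an adjusted p of 0.00264. It was the widest change of the 9, and its rank moved from 2171 to 1075 of 15043.

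Tnfrsf18 stood at 1792, 1795 and 1693 TPM without IL-2 and at 2763, 2994 and 2602 TPM with it. The groups did not overlap. The log2 fold change was 0.66 ± 0.13, with an adjusted p of 0.00551. Its chromosomal neighbour Tnfrsf4 went from 2367.8, 2416.5 and 2173.6 TPM to 3240.1, 3392.5 and 2864.0 TPM, again without overlap. Its log2 fold change of 0.45 ± 0.14 had an adjusted p of 0.0585, so that Tnfrsf4 passed the threshold of the authors but not the adjusted one. It passed under 6 of the 22 alternatives, with adjusted p from 0.00325 to 0.188, and with quantile normalization the log2 fold change was 0.27.

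Cd27 moved the other way. Its libraries held 451.7, 460.1 and 459.7 TPM in EV no IL-2 and 288.9, 297.4 and 302.7 TPM in EV+IL-2. Both groups were tight and lay far apart. The log2 fold change was -0.62 ± 0.10, a mean 35.2% lower, with an adjusted p of 0.00221. The calls of Tnfrsf9, Tnfrsf18 and Cd27 held under all 22 alternative settings, with adjusted p from 8.89e-05 to 0.0284.

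Fas, the death receptor for FasL, changed least among the 4. It stood at 87.9, 84.6 and 75.5 TPM without and at 104.2, 104.4 and 101.7 TPM with IL-2. The groups did not overlap, and the log2 fold change was 0.32 ± 0.08 with an adjusted p of 0.0238. This call was lost without replicate 2 or 3 of EV no IL-2 (adjusted p = 0.0562 and 0.107) and without any 1 replicate of EV+IL-2, where it lay between 0.0579 and 0.0822.

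Tnfrsf1b, Tnfrsf26, Tnfrsf25 and Tnfrsf1a did not pass. Tnfrsf1b was lower in every EV+IL-2 library, at 117.4, 122.7 and 111.9 TPM beside 141.3, 141.4 and 147.3 TPM, with a log2 fold change of -0.29 ± 0.22 and an adjusted p of 0.486. Fitted on these 6 libraries alone, where the spread of the 1G12t and 3A10t libraries does not enter, the adjusted p was 0.011. The cause of that difference was not tested, and Tnfrsf1b passed in 0 of the 12 fits that left out 1 library. Tnfrsf26 was also lower in every library, at 74.4, 73.0 and 64.7 TPM beside 90.0, 109.6 and 100.7 TPM, with a log2 fold change of -0.49 ± 0.26. Its adjusted p was 0.272, or 0.0217 over the 6 libraries. The libraries of Tnfrsf25 and Tnfrsf1a overlapped between the groups, with log2 fold changes of -0.16 and 0.18 and adjusted p of 0.291 and 0.358. In all, 7 of the 9 receptors did not overlap between these groups, beside 39.6% of all genes.

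Erythroid markers moved with the same comparison. The sum of 6 such genes was 24.5 to 38.7 TPM in EV+IL-2 and 1.76 to 4.02 TPM in the other 9 libraries, nearly all of it from the globin genes Hba-a1 and Hba-a2. The part of these transcripts in the receptor values was not tested.

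**Figure D2:**
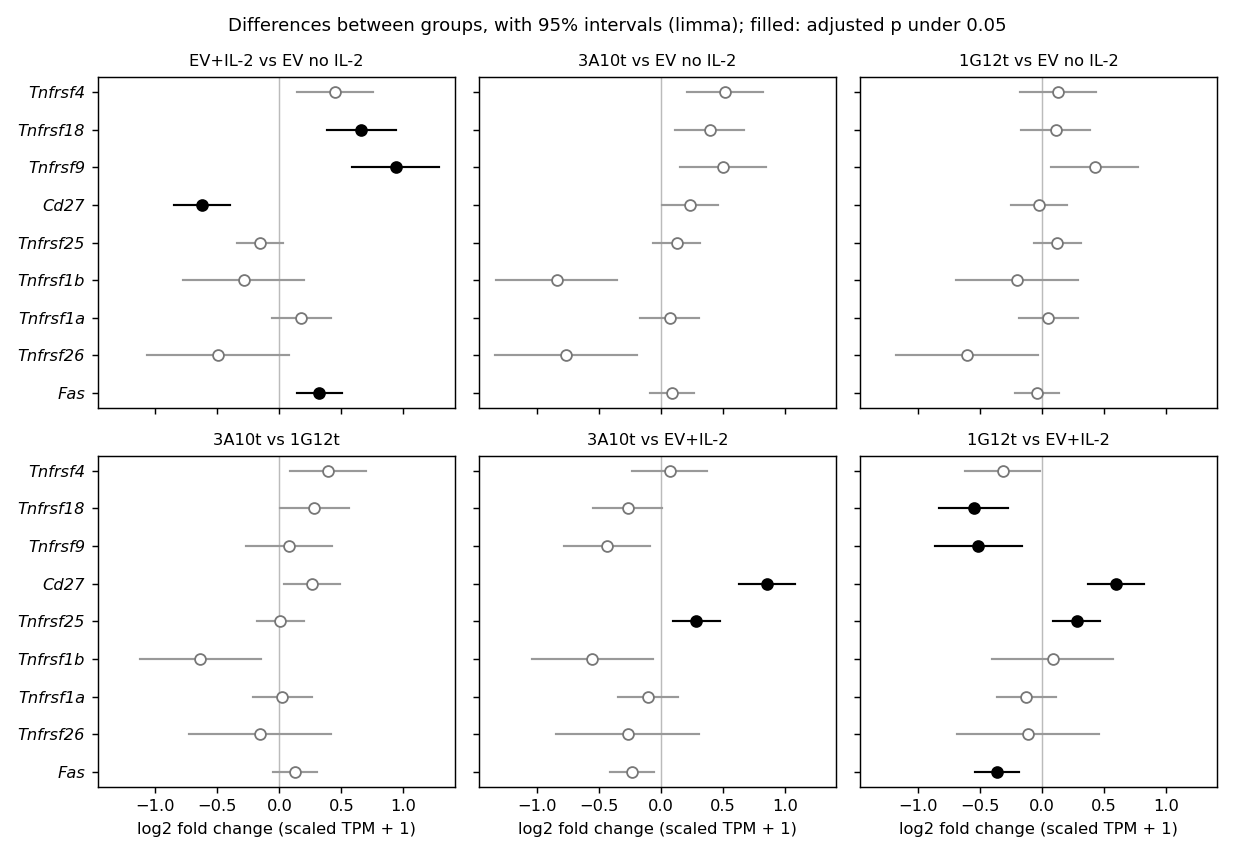
Log2 fold change (x axis, on the scale of scaled TPM + 1) of the 9 receptors in 6 comparisons, with 95% intervals from limma over all 12 libraries and filled points where the adjusted p is under 0.05. With EV no IL-2 as reference, 4 points are filled for EV+IL-2 and 0 for 3A10t and 1G12t.

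In 3A10t Tregs, the tethered construct was compared with EV cells under the same withdrawal of IL-2. Tnfrsf4, Tnfrsf18 and Tnfrsf9 were higher and Tnfrsf1b and Tnfrsf26 were lower in all 3 libraries, but 0 of the 9 passed the adjusted threshold, beside 2.05% of all genes tested. An unadjusted p under 0.05 was reached by 6 of the 9, beside 3909 of the 15043 genes tested. At the authors' threshold 4 of 9 passed, Tnfrsf4, Tnfrsf9, Tnfrsf18 and Tnfrsf1b, beside 9.5%. The 5 receptors without overlap stood beside 25.4% of all genes. This comparison shares its EV no IL-2 libraries with the one above.

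Tnfrsf1b had the largest difference, with 122.4, 60.3 and 68.4 TPM in 3A10t against 141.3, 141.4 and 147.3 TPM in EV no IL-2. Replicates 2 and 3 were far below every EV no IL-2 library, and replicate 1 was only a little below EV. The log2 fold change was -0.84 ± 0.22, with an adjusted p of 0.073. Replicate 1 was also the highest for Tnfrsf26, at 83.5, 49.9 and 47.9 TPM, with a log2 fold change of -0.76 ± 0.26 and an adjusted p of 0.116.

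Tnfrsf4 reached 2760, 4290 and 3086 TPM in 3A10t, with replicate 2 far above the others. The log2 fold change was 0.52 ± 0.14 and the adjusted p 0.074. Tnfrsf18 had 2059, 2837 and 2114 TPM, a log2 fold change of 0.39 ± 0.13 and an adjusted p of 0.105. Replicate 2 was the highest for both of these neighbouring genes. For Tnfrsf9, in contrast, replicate 2 was the lowest, at 100.6 TPM beside 136.2 and 144.0 TPM, all above EV no IL-2. Its log2 fold change was 0.50 ± 0.16 with an adjusted p of 0.102.

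Cd27, which was lower with soluble IL-2, was not lower with the tether. Its 3A10t libraries stood at 455.1, 632.7 and 542.2 TPM, of which replicate 1 lay within the EV no IL-2 range and the others above it. The log2 fold change was 0.24 ± 0.10 with an adjusted p of 0.179. Fas, Tnfrsf25 and Tnfrsf1a overlapped with EV no IL-2, with log2 fold changes of 0.09, 0.13 and 0.07.

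The 3A10t libraries differed among themselves. The median within-group SD over all genes was 0.224 on the log2 scale in 3A10t and 0.109 to 0.154 in the other groups. B cell markers summed to 12.2 to 17.4 TPM in 3A10t and to at most 13.8 TPM elsewhere, and their part in the receptor values was not tested. Without replicate 1, 5 of the 9 receptors passed the adjusted threshold, namely Tnfrsf4 (log2 fold change 0.65, adjusted p = 0.00758), Tnfrsf18 (0.48, 0.0327), Tnfrsf1b (-1.14, 0.000438), Tnfrsf26 (-1.01, 0.0166) and Cd27 (0.36, 0.0106). In that fit 3469 of all genes were called in place of 308. Without replicate 2 or replicate 3 of 3A10t, 0 of the 9 were called.

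Differences in the 3A10t libraries also ran with transcript length. Medians of the log2 deviation from the mean of EV no IL-2 were taken over protein-coding genes with a mean of at least 5 TPM. Transcripts of up to 1500 nt stood at 0.483 in replicate 2 and 0.145 in replicate 3. Those of over 3000 and up to 6000 nt stood at -0.355 and -0.204. In replicate 1 the values were 0.0435 and -0.0264, and in the other 9 libraries they lay between -0.107 and 0.155 for these 2 classes. Longer transcripts differed from this. In the longest class, with a median of 9480.5 nt, replicates 2 and 3 of 3A10t stood at -0.192 and -0.0309. Other groups held trends as well. From a median of 2020 nt to that class, 1G12t replicate 3 went from -0.133 to 0.341. EV no IL-2 replicate 3 went from -0.127 at 820.5 nt to 0.105. The transcripts of the receptors measure 1090 nt for Tnfrsf4, 1189 nt for Tnfrsf18, 1559 nt for Cd27, 1625 nt for Fas, 1661 nt for Tnfrsf25, 2115 nt for Tnfrsf9, 2156 nt for Tnfrsf1a, 3107 nt for Tnfrsf26 and 3818 nt for Tnfrsf1b. The log2 differences of 3A10t from EV no IL-2 in that order were 0.52, 0.39, 0.24, 0.09, 0.13, 0.50, 0.07, -0.76 and -0.84, of which 0 passed.

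After removal of the length trend, an alternative chosen after the data were seen, Tnfrsf1b stood at -0.67 (adjusted p = 0.0866) and Tnfrsf26 at -0.66 (0.140) on the log2 scale. Tnfrsf9 stood at 0.45 (0.148). The short transcripts came closer to 0, with 0.33 (0.0621) for Tnfrsf4, 0.21 (0.169) for Tnfrsf18 and 0.09 (0.462) for Cd27. The same removal left the changes with soluble IL-2 at 0.92 for Tnfrsf9, 0.59 for Tnfrsf18, 0.36 for Tnfrsf4, 0.29 for Fas and -0.66 for Cd27, all 5 past the adjusted threshold.

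**Figure D3:**
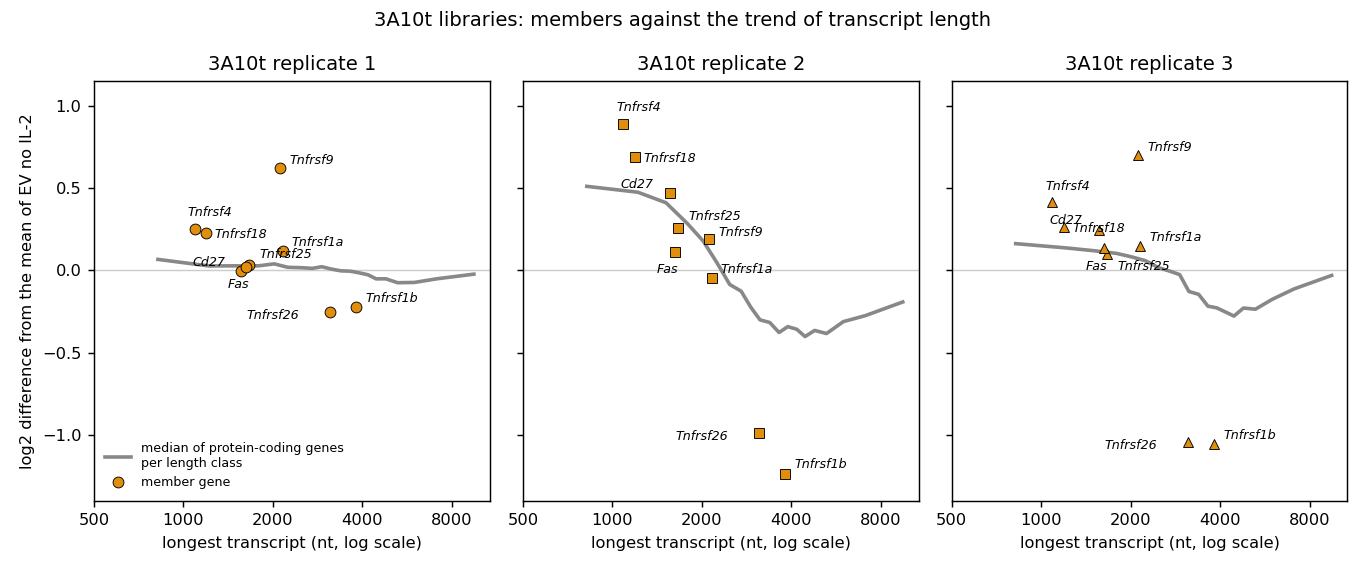
Log2 difference of each 3A10t library from the mean of EV no IL-2 (y axis) against the longest annotated transcript (x axis, nt, log scale), with the 9 receptors as points and the median of protein-coding genes per length class as a line. In replicates 2 and 3 the line falls from short transcripts to a lowest class with a median of 4448 nt. It is higher again in the longest class. Tnfrsf1b and Tnfrsf26 lie well under the line in both replicates, and Tnfrsf9 lies above it in replicates 1 and 3.

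With 1G12t, 0 of the 9 receptors passed, beside 0.0199% of all genes tested, and 0 passed the authors' threshold when it was applied to this limma fit of TPM, beside 1.36%. An unadjusted p under 0.05 was reached by 2, beside 1059 of the 15043 genes tested. One was Tnfrsf9, at 103.5, 109.7 and 147.0 TPM, above every EV no IL-2 library, with a log2 fold change of 0.42 ± 0.16 and an adjusted p of 0.703. The other was Tnfrsf26, at 83.5, 78.8 and 42.1 TPM, below every EV library, with a log2 fold change of -0.61 ± 0.26 and an adjusted p of 0.703. Replicate 3 was the extreme library for both genes. Tnfrsf1b also had no overlap, at 136.5, 141.1 and 100.2 TPM, though its first libraries were almost level with EV. These 3 of 9 stood beside 16.5% of all genes.

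The other 6 receptors overlapped with EV no IL-2 and differed by -0.04 to 0.13 on the log2 scale. Cd27 held 423.9, 454.8 and 468.4 TPM, a log2 fold change of -0.03 with a 95% interval from -0.25 to 0.20. For Tnfrsf4 the interval ran from -0.18 to 0.43, and for Tnfrsf18 from -0.17 to 0.39.

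Both tethers were set against soluble IL-2 and against each other. In 1G12t relative to EV+IL-2, 5 of 9 receptors were called, beside 20.6% of all genes. The 3 that were lower in 1G12t, beside 10.9% of all genes, were Tnfrsf18 (log2 fold change -0.55 ± 0.13, adjusted p = 0.0114), Fas (-0.36 ± 0.08, 0.0103) and Tnfrsf9 (-0.51 ± 0.16, 0.0422). The 2 that were higher, beside 9.69%, were Cd27 (0.60 ± 0.10, 0.0024) and Tnfrsf25 (0.28 ± 0.09, 0.0412). Tnfrsf25 had 219.7, 234.1 and 240.2 TPM in 1G12t beside 184.9, 207.4 and 179.7 TPM in EV+IL-2. The calls of Tnfrsf9 and Tnfrsf25 were lost under 12 and 9 of the 22 alternatives, among them the fit without any 1 of the EV no IL-2 libraries, with adjusted p of up to 0.156 and 0.141. Those of Cd27, Tnfrsf18 and Fas held under all 22.

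In 3A10t relative to EV+IL-2, 2 of 9 were called, beside 23.4% of all genes, and both were higher, beside 10.3%. Cd27 was higher by 0.86 ± 0.10 on the log2 scale, a ratio of means of 1.83, with an adjusted p of 0.000288. Tnfrsf25 was higher by 0.29 ± 0.09, with an adjusted p of 0.0348 that rose above 0.05 under 8 of the 22 alternatives, the removal of the length trend included (0.0526). Tnfrsf9 (-0.43, 0.0706) and Fas (-0.23, 0.0603) were lower in every 3A10t library but not past the threshold. Tnfrsf4 overlapped, with a difference of 0.07 and a 95% interval from -0.23 to 0.38.

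Between 3A10t and 1G12t, 0 of 9 receptors were called, beside 4.27% of all genes. By limma, 4 had an unadjusted p under 0.05, beside 4469 of the 15043 genes tested. Those 4 differed by -0.64 ± 0.22 for Tnfrsf1b (adjusted p = 0.0935), 0.39 ± 0.14 for Tnfrsf4 (0.0988), 0.28 ± 0.13 for Tnfrsf18 (0.165) and 0.26 ± 0.10 for Cd27 (0.121). Without 3A10t replicate 1, 3 of them passed, Tnfrsf1b, Tnfrsf4 and Cd27, beside 4139 of the 14974 genes in that fit. Tnfrsf4 was the 1 receptor that did not overlap, beside 26.2% of all genes. Tnfrsf9 differed by 0.08, with an interval from -0.27 to 0.43.

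Ratios between receptors within a library do not depend on the scaling between libraries, and 4 of them were computed after the values had been seen. The ratio of Tnfrsf9 to Cd27 was 0.200, 0.183 and 0.196 in EV no IL-2 and 0.649, 0.575 and 0.502 in EV+IL-2. It was 0.244, 0.241 and 0.314 in 1G12t, and 0.299, 0.159 and 0.266 in 3A10t. The EV+IL-2 libraries stood apart from the other 9, and the 3A10t libraries straddled EV no IL-2. Cd27 relative to Tnfrsf18 was 0.260 ± 0.0103 without IL-2 and 0.107 ± 0.00871 with it, 0.237 ± 0.0268 with 1G12t and 0.234 ± 0.0199 with 3A10t. Again the 3 EV+IL-2 libraries did not overlap with the rest. These ratios pair receptors that moved in opposite directions and are a description. An exact permutation of 3 libraries against 3 cannot give a p under 0.1.

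**Figure D4:**
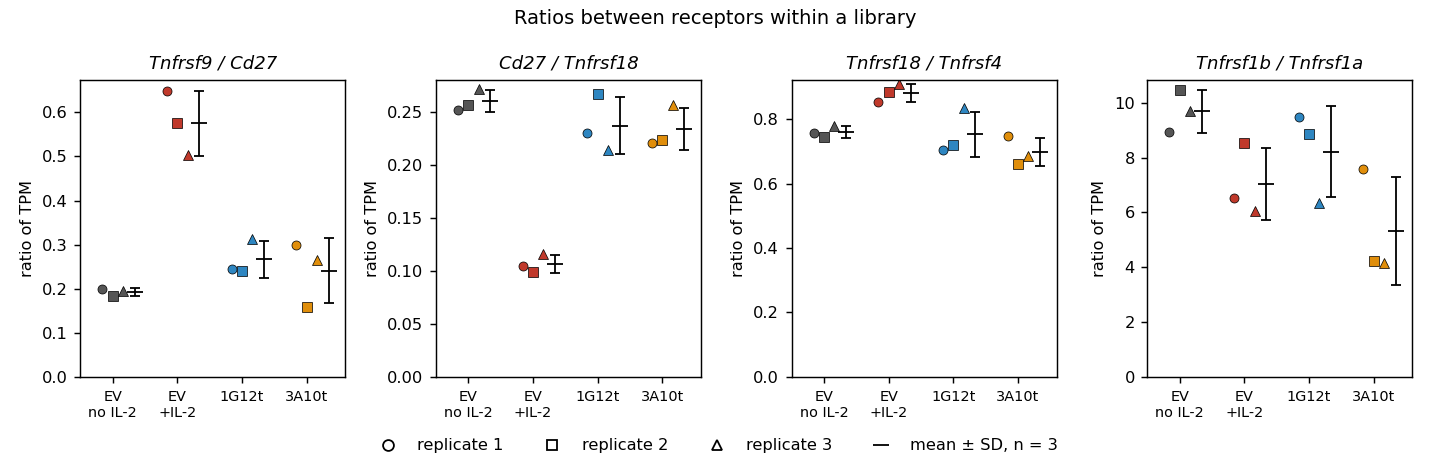
Ratios of TPM between pairs of receptors within each library (y axes, from 0), by group, with the mean ± SD (n = 3). Tnfrsf9 relative to Cd27 and Cd27 relative to Tnfrsf18 set the EV+IL-2 libraries apart, and Tnfrsf1b relative to Tnfrsf1a was lowest in replicates 2 and 3 of 3A10t.

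Tnfrsf1b exceeded Tnfrsf1a by a ratio of 9.69 ± 0.783 without IL-2 and 7.03 ± 1.32 with it, 8.21 ± 1.66 with 1G12t and 5.31 ± 1.96 with 3A10t. The libraries did not overlap where EV no IL-2 was compared with EV+IL-2 or 3A10t, and overlapped in the other 4 comparisons. In 3A10t the ratio was 7.58 in replicate 1 and 4.21 and 4.14 in replicates 2 and 3. The sum of the 9 receptors was 5178 ± 189 TPM without IL-2 and 6918 ± 492 TPM with it, 5539 ± 362 TPM with 1G12t and 6866 ± 1282 TPM with 3A10t. Tnfrsf4 and Tnfrsf18 made up 86.0% ± 0.566 of it with soluble IL-2, 80.3% ± 1.47 with 1G12t and 83.0% ± 2.31 with 3A10t.

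Of 8 genes for ligands of these receptors, 5 were tested, and 3 rose in EV+IL-2 relative to EV no IL-2, beside 8.17% of all genes (median of the 5, 1.69, against -0.01 over all genes). Lta, which encodes lymphotoxin α and, like TNF, binds both TNF receptors, went from 144.2, 150.2 and 135.9 TPM to 516.6, 552.1 and 496.1 TPM. Its log2 fold change was 1.86, with an adjusted p of 6.69e-06. Tnf itself rose from 33.6 ± 4.30 to 115 ± 5.21 TPM (1.75, 0.000888), and Tnfsf4, the OX40 ligand, from 4.91, 4.82 and 4.08 TPM to 17.9, 18.1 and 15.4 TPM (1.69, 0.00439). Tnfsf9, the ligand of 4-1BB, stood at 17.0 and 19.1 TPM, with a log2 difference of 0.15 and an adjusted p of 0.552. Fasl, the ligand of Fas, stood at 5.44 and 4.15 TPM, with a log2 difference of -0.32 and an adjusted p of 0.136. The ligands of CD27, GITR and DR3 (Cd70, Tnfsf18 and Tnfsf15) were under 1 TPM in both groups.

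Relative to EV+IL-2, Lta, Tnf and Tnfsf4 were lower in both tether groups. The log2 fold changes of 1G12t were -1.86, -2.14 and -1.32, and that of Tnf with 3A10t was -1.52. Lta averaged 185 TPM and Tnfsf4 5.55 TPM with 3A10t. All 6 differences passed, with adjusted p from 5.76e-06 to 0.0125. Of all genes, 13% were called lower in 3A10t and 10.9% in 1G12t. Fasl was higher in 1G12t, at 8.03, 7.62 and 7.03 TPM beside 4.21, 4.47 and 3.76 TPM in EV+IL-2 (0.73, adjusted p = 0.00256), and in 3A10t (0.50, 0.0175). Against EV no IL-2, 0 of the 5 ligands passed by limma in 3A10t or in 1G12t, beside 2.05% and 0.0199% of all genes. In each, 1 had an unadjusted p under 0.05, beside 3909 and 1059 of the 15043 genes tested. Lta was higher in every 3A10t library, at 151.2, 219.6 and 184.7 TPM, with a log2 difference of 0.35 and an adjusted p of 0.118.

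**Figure D5:**
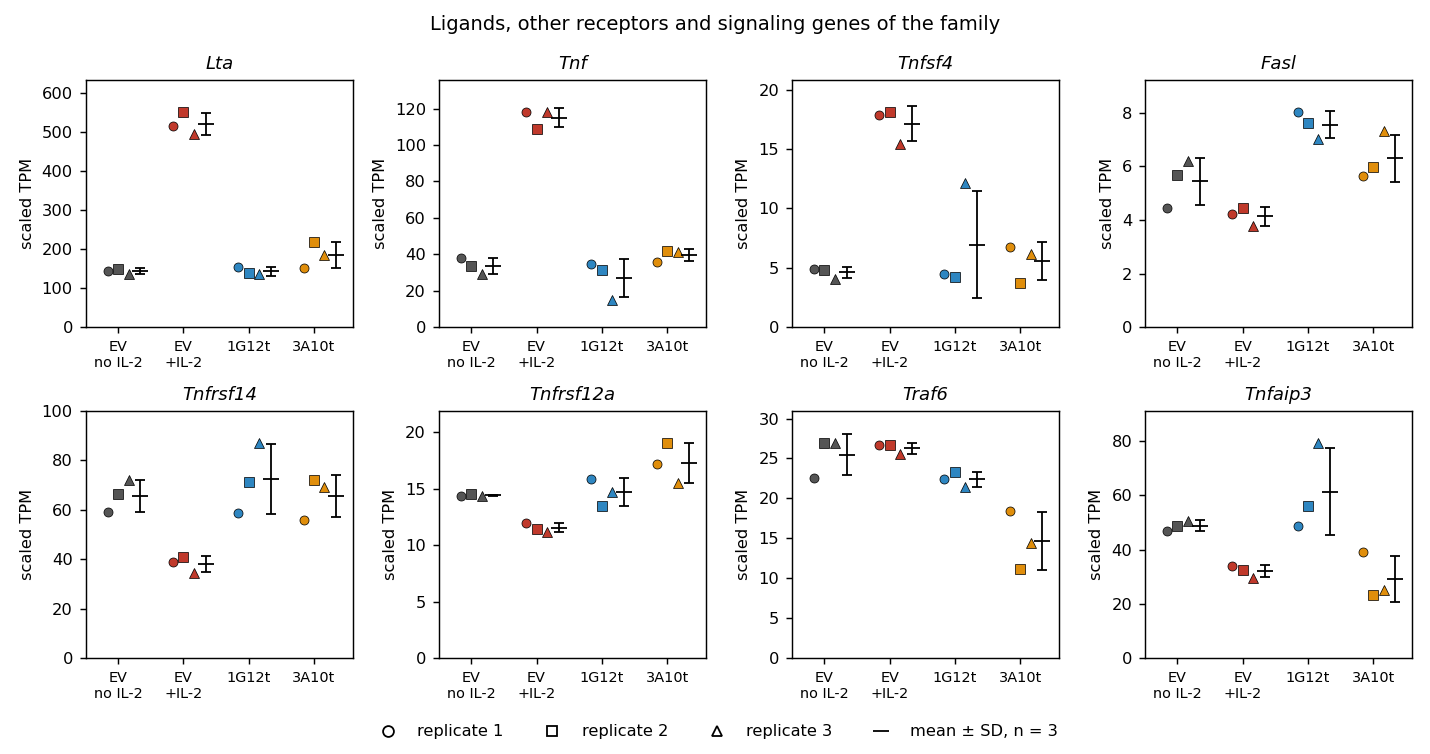
Scaled TPM (y axes, from 0) of 4 ligands (Lta, Tnf, Tnfsf4 and Fasl), 2 other receptors (Tnfrsf14 and Tnfrsf12a) and 2 signaling genes (Traf6 and Tnfaip3) in each library, with the mean ± SD (n = 3). Lta, Tnf and Tnfsf4 were highest in the 3 EV+IL-2 libraries, Tnfrsf14 was lowest there, and Traf6 was lowest in 3A10t.

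Among 19 other receptors of the superfamily, 10 were tested and 2 rose and 2 fell in EV+IL-2 relative to EV no IL-2, beside 8.17% and 5.13% of all genes. Tnfrsf14, which encodes HVEM, the receptor for LIGHT and a partner of BTLA, had 58.9, 66.3 and 71.9 TPM without and 39.0, 40.8 and 34.4 TPM with IL-2. Its log2 fold change was -0.77, with an adjusted p of 0.00576. Tnfrsf12a, the receptor for TWEAK, had 14.4 ± 0.0607 and 11.5 ± 0.399 TPM (-0.30, 0.0487). Both were higher in each tether group than in EV+IL-2, Tnfrsf14 by 0.77 in 3A10t and 0.90 in 1G12t, and Tnfrsf12a by 0.54 and 0.32, with adjusted p of at most 0.0263. The receptors that rose were Eda2r and Tnfrsf10b, named after their values were seen and both under 3 TPM in EV no IL-2. None of the 10 passed in 3A10t or 1G12t relative to EV no IL-2 by limma, beside 2.05% and 0.0199% of all genes. In each, 1 of the 10 had an unadjusted p under 0.05, beside 3909 and 1059 of the 15043 genes tested.

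Of 23 proximal adaptors and kinases, all 23 were tested. Casp8, named after its value was seen, was the 1 that rose in EV+IL-2 relative to EV no IL-2, beside 8.17% of all genes. The median log2 fold change of the 23 was 0.01 in that comparison. In 3A10t, 0 rose and 2 fell, beside 1.6% of all genes that fell, with a median of -0.24 beside 0.03 over all genes. The 2 were Traf6, a TRAF adaptor, at 18.4, 11.1 and 14.4 TPM beside 22.5, 26.9 and 27.0 TPM (-0.78, adjusted p = 0.033), and Cyld, a deubiquitinase that restrains NF-κB signaling (-0.72, 0.0329). Both were also lower than in 1G12t (-0.61 for each, 0.0466 and 0.0399), together with Tnfaip3, which encodes the NF-κB inhibitor A20 (-1.06, 0.0306). Over all 15043 genes, 446 were called lower in 3A10t than in 1G12t. Relative to EV+IL-2, 6 of the 23 were lower in 3A10t, beside 13% of all genes, among them Map3k7, the kinase TAK1 (-1.29, 0.0238), and Ripk1, a kinase bound by death domains (-0.64, 0.00898). As for Tnfrsf1b, replicates 2 and 3 of 3A10t were the lowest for Traf6, Cyld, Ripk1 and Tnfaip3, whereas for Map3k7 replicates 1 and 2 were. The part of the transcript length trend in these values was not tested. Tnfaip3 was highest in 1G12t, at 48.8, 56.1 and 79.3 TPM, and above EV+IL-2 (0.89, 0.0102).

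All 9 NF-κB factors and inhibitors were tested. In EV+IL-2 relative to EV no IL-2, Bcl3, an atypical IκB protein, rose from 58.9 ± 5.84 to 97.1 ± 5.72 TPM (log2 fold change 0.71, adjusted p = 0.0113) and Nfkb1, which encodes p105 and p50, from 54.2 ± 5.47 to 83.0 ± 12.4 TPM (0.60, 0.0267). Rel, which encodes c-Rel, fell (-0.40, 0.0495). In that comparison 8.17% of all genes were called higher and 5.13% lower. Rel was higher in 1G12t than in EV+IL-2 (0.67, 0.00311) and lower in 3A10t than in 1G12t (-0.54, 0.0405). Nfkbib, which encodes IκBβ, was higher in 3A10t than in EV+IL-2 (0.41, 0.0425), whereas Nfkb1 was lower (-0.59, 0.0199). Bcl3 was lower in 1G12t than in EV+IL-2 (-0.62, 0.0167). Relative to EV no IL-2, 0 of the 9 passed by limma with either tether, beside 2.05% of all genes for 3A10t and 0.0199% for 1G12t. At an unadjusted p under 0.05 there were 1 for 3A10t and 2 for 1G12t, beside 3909 and 1059 of the 15043 genes.

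The genes with the pattern most like a receptor were sought for Tnfrsf9 and Cd27, the members with the widest range of group means. Likeness was the root mean square difference of log2 values, each centred over the 12 libraries, among 10002 genes with a mean of at least 5 TPM. Among the closest to Tnfrsf9 were Tpm4 (0.178) and Sept11 (0.181), where the median of all genes was 0.429. Tpm4, which encodes a tropomyosin, had group means of 185 TPM without IL-2 and 310.3 TPM with it, 193 TPM with 1G12t and 212 TPM with 3A10t. Closest to Cd27 were Trbv13-3, a T cell receptor β variable gene (0.0780), Icam2, an adhesion molecule (0.0787), and Smc4, a condensin subunit (0.0813), with a median of 0.412. Smc4 had 743 TPM without and 481 TPM with soluble IL-2, and 844 TPM with 3A10t. All of these values come from the same 12 libraries and share their scaling.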

How the data were processed

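RNA was measured in 12 libraries of Tregs, 3 in each of 4 groups, which were taken from the sample labels. The authors deposited TPM, 1 column per library. Per the submitters' processing notes, reads were handled with cutadapt 1.18, STAR 2.5.3 and RSEM 1.3.0 on GRCm38 (mm10), with DESeq2 1.26 for their own tests on counts, which are not part of the values used here. Depth is unknown, because TPM have the same total in every library.

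TPM were divided by median-of-ratios factors. Genes whose mean reached 1 TPM were tested with limma 3.58.1 in R 4.3.3 on log2 of scaled TPM plus 1. The functions were lmFit and eBayes, the latter with the trend of variance on mean level switched on. The fit used all 12 libraries and a Benjamini-Hochberg threshold of 0.05. Ratios, shares and sums were compared by exact permutation. With 3 libraries against 3 its smallest possible p is 0.1, so these values are given as a description. Code was tested on simulated data. The rule named all 9 members in each of 6 comparisons. From each other list it named at most 5 genes with a mean of at least 5 TPM and the largest change among those called. Likeness was taken for 2 members with 3 genes each, of which 1 is not reported here. The members and lists were chosen with earlier results of these data known, and the study itself picked Tnfrsf9, Tnfrsf1b and Lta from these libraries.

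Per the labels, a replicate number marks a shared sort and activation. The deviations from group means of 18 same-numbered library pairs had correlations from -0.105 to 0.155, with a median of 0.0562, against -0.0249 over 36 pairs with other numbers. The alternatives were pseudocounts of 0.1 and 5, no filter or a filter at 5 TPM, quantile normalization, no scaling of the deposited TPM, the 6 libraries compared, the replicate block, leaving out each library, and removal of the transcript length trend by lowess with a span of 0.3. Positions came from GENCODE M21 and promoters from RefSeq (GRCm38.p6). Python 3.11.15, scipy 1.17.1 and matplotlib 3.10.9 were used.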

Additional observations from a re-analysis of the deposited data

How the results depend on the processing

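Of 54 receptor results (9 receptors in 6 comparisons), 18 kept their direction and their side of the adjusted threshold under all 22 alternatives. None of the 11 called results (0 of 11) reversed, and the replicate block changed 0 calls of receptors. Depth is unknown, and 3 cultures per group from 1 pool of mice limit the precision. Except where stated, the cause of a change was not tested.

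With the 6 libraries compared alone, which leaves fewer samples for the spread, 3209 genes in place of 2001 and 7 receptors in place of 4 were called for EV+IL-2 against EV no IL-2. For 3A10t against EV no IL-2, 308 genes (22.1% higher) became 4 (75% higher) with those libraries alone, 182 (30.2%) with quantile normalization, 499 (10.6%) with TPM as deposited and 199 (33.2%) with the length trend removed. For 1G12t, 3 genes became 13 without a filter and 5 with the 6 libraries. For 3A10t against 1G12t, 642 genes (30.5% higher) became 1396 (6.88%) with TPM as deposited, 142 without a filter, 1172 (42.6%) at a mean of 5 TPM, 13 (61.5%) with the 6 libraries, 987 with the replicate block, 244 with the length trend removed and 368 with the trend removed and the replicate block. For 3A10t against EV+IL-2, 3513 genes (44.2% higher) became 15888 (85.9%) without a filter and 1889 with the 6 libraries, and 2 receptors became 4 with the trend removed and the block. For 1G12t against EV+IL-2, 3099 genes (47% higher) became 14842 (87.4%) without a filter and 1926 (34.2%) at 5 TPM, and 61.3% were higher with TPM as deposited. Leaving the deposited TPM unscaled put the median over all genes at -0.179 (log2) in place of -0.0167 for 3A10t against 1G12t and -0.0907 in place of 0.0263 for 3A10t against EV no IL-2.

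Leaving out 1 library gave 1232 to 2652 genes for EV+IL-2 against EV no IL-2, 25 (without EV no IL-2 replicate 3) to 3469 (without 3A10t replicate 1) for 3A10t and 3 to 14 for 1G12t. It gave 47 (without 1G12t replicate 3) to 4139 (without 3A10t replicate 1) for 3A10t against 1G12t, 1964 to 5051 for 3A10t and 2010 to 3791 for 1G12t against EV+IL-2. The receptors called ranged from 3 to 5, 0 to 5, 0 to 0, 0 to 3, 1 to 3 and 3 to 6 in the same order.

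The results that reversed were all uncalled, on the log2 scale. For 3A10t against EV no IL-2, TPM as deposited gave Tnfrsf1a -0.067, Tnfrsf25 -0.020 and Fas -0.058, and removal of the length trend, with or without the replicate block, gave Tnfrsf25 -8.17e-06 and Fas -0.045. For 1G12t, Cd27 was 0.0166, 0.068 and 0.0167 and Fas 0.0052, 0.043 and 0.0065 with deposited values, quantile normalization and the trend removed. Leaving out a library gave Cd27 -0.0566 to 0.0149, Fas -0.105 to 0.0187 and Tnfrsf1a -0.0163 to 0.0953. For 3A10t against 1G12t, TPM as deposited gave Tnfrsf9 -0.11, Tnfrsf1a -0.16, Tnfrsf25 -0.19 and Fas -0.063, quantile normalization gave Tnfrsf9 -0.0188 and Tnfrsf25 -0.17, and trend removal gave Tnfrsf9 -0.0182, Tnfrsf1a -0.068, Tnfrsf25 -0.17 and Fas -0.051. Leaving out a library gave Tnfrsf9 -0.0225 to 0.236, Tnfrsf1a -0.0191 to 0.0726, Tnfrsf25 -0.0694 to 0.0587 and Tnfrsf26 -0.463 to 0.0229. Against EV+IL-2, Tnfrsf4 in 3A10t was -0.0153 with TPM as deposited, -0.036 with the trend removed and -0.122 to 0.207 without 1 library, and Tnfrsf1a was 0.050 with quantile normalization. In 1G12t, leaving out a library gave Tnfrsf1b -0.0017 to 0.242 and Tnfrsf26 -0.284 to 0.1999.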
